A study of Homo sapiens with 12 samples.

Results

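Interferon-stimulated genes are the genes that cells switch on when type I or type III interferon binds its receptor, and a list of 38 of them was followed here through A375 cells, a human melanoma line, under 4 treatments. The members were taken by symbol from a list and not by their values, and 38 of 38 were found among the 26475 entries of the count table. All 38 passed the filter on low counts, as did 15353 entries in all. Cells received for 24 h the vehicle DMSO, the CDC7 inhibitor XL413 at 1 µM, OF1, an inhibitor of BRPF1/2/3, at 1 µM, or both inhibitors at those doses (the combination), with 3 libraries in each group. CDC7 is a kinase needed for the start of DNA replication, and the BRPF proteins are scaffolds of histone acetyltransferase complexes. All groups shared the same line and serum-supplemented DMEM medium, no interferon or virus is named among the treatments, and none of the groups carries a named genetic change.

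Interferon receptors signal through the kinases JAK1 and TYK2 to a complex that holds STAT2 and IRF9 and binds the interferon-stimulated response element near their target genes. The products sense viral RNA, block its translation, degrade it or tag proteins with ISG15, and several of them (STAT2, IRF7, IRF9, RIG-I) also act within the pathway. Tumour lines can express many of these genes at a low level without added interferon.

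Promoter sequence is shown first. The members were listed by symbol and not by sequence. Genes of such a list are targets of the response element, however, so an excess of it over all promoters is built into the choice. RefSeq promoter sequence on GRCh38.p14 was matched for 30 of 38 members, and the 250 bases before each start were searched on both strands for the core of the response element, GAAA and GAAA with any 2 bases between them. It was present in 16 of 30 members (53.3%) and in 3.02% of 35116 promoters. The core of the gamma-activated site, TTCNNNGAA, was present in 8 of 30 (26.7%) and in 6.57% of promoters. The motifs can share bases, with themselves and with each other, and a match is a run of letters rather than a bound site. Stretches from 5 members follow, with the response element core in capitals, either as spelled or as its reverse complement (TTTC and TTTC likewise spaced). They are from ISG15 (chr1:1013354-1013429, plus strand), IFIT1 (chr10:89392477-89392559, plus strand), IFI6 (chr1:27672246-27672378, minus strand), IFIT5 (chr10:89414493-89414567, plus strand) and IFITM3 (chr11:320861-320942, minus strand), each written 5′ to 3′ along its gene.
ISG15: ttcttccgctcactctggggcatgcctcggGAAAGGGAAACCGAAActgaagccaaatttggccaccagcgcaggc
IFIT1: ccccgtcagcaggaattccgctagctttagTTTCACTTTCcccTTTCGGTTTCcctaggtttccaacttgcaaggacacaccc
IFI6: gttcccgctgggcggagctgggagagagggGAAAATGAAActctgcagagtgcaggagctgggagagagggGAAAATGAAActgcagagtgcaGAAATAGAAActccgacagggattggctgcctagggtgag
IFIT5: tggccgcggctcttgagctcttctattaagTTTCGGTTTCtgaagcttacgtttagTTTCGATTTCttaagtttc
IFITM3: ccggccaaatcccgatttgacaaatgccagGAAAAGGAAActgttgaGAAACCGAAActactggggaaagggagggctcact
The first 3 belong to genes that spread widely between replicates and the last pair to genes that did so less. The last pair was not narrow, however. Relative to counting alone, IFITM3 spread more than 89.2% of all tested genes and IFIT5 more than 71.7%. A link between the motif and the spread was not tested. Only promoters with a match are shown. The searched bases of HERC6, IRF1, RSAD2, MX1 and XAF1, genes treated below, held no match to the response element core. A single start was searched for each gene, so a match before another start or farther away would be missed.

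Total counts ran from 30499559 to 36062138 per library, and levels are given as CPM, counts scaled to the library total by TMM factors. SOX10, a melanocyte lineage factor, stood at 318 to 386 CPM and MITF at 32.8 to 44.4 CPM, while TYR, the pigment enzyme, had 0 counts in every library. The leukocyte marker MS4A1 and the plasmacytoid dendritic marker CLEC4C had 0 counts in every library, and PTPRC had at most 3. Of the 10 listed leukocyte genes 4 passed the filter, and the list summed to 953 to 1106 CPM, most of it CD74, the class II invariant chain (905 to 1056 CPM), with CD68 at 41.1 to 45.0 CPM and LYZ at 5.04 to 6.87 CPM. Of the 4 plasmacytoid dendritic genes TCF4 alone passed, at 10.1 to 12.8 CPM. The part of these cell types in the results was not tested. RNA of skeletal muscle genes was also detected. The 32 listed muscle fibre genes summed to 120 to 317 CPM in DMSO, 177 to 382 in XL413, 174 to 395 in OF1 and 43.0 to 134 in the combination. The 8 fibroblast genes summed to 214 to 285 CPM in the first 3 groups and to 58.5 to 159 CPM in the combination. In such bulk samples fewer cells of a type and less RNA per cell cannot be told apart.

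Few of the 38 genes passed the test with either inhibitor or with both. A gene was called when its adjusted p was under 0.05 in edgeR's quasi-likelihood test over all tested genes. For XL413 against DMSO the median standard error of the log2 change was 0.131 over the members and 0.069 over all tested genes. An equal change was therefore less readily called in a typical member, and a gene not called may still have changed. XL413 against DMSO called 0 members, where 2.8% of all tested genes were called. OF1 against DMSO called 0, where the share over all genes was 1.15%. The combination against DMSO called 1 member, HERC6, where the share was 10.7% in either direction and 5.65% rising. The combination against XL413 called 0, with 3.41% of all genes, and the combination against OF1 called 1, IRF1, with 5.5% in either direction and 2.79% rising. Non-additivity, the difference between the combination's log2 change and that of both inhibitors added up, called 0 members and 0% of all genes. At an unadjusted p under 0.05 edgeR gave 2, 4, 4, 1, 7 and 1 members in these 6 comparisons, in that order, against 18.6%, 14.4%, 25.6%, 16.8%, 22.5% and 10.2% of all genes. DESeq2 and limma-voom called the same numbers of members, with HERC6 and IRF1 again the ones called.

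HERC6 rose in the combination. Its protein is a HECT and RCC1-like domain relative of HERC5, the main ligase that attaches ISG15 in human cells. HERC6 stood at 8.69, 8.27 and 7.59 CPM in DMSO, 8.62, 9.65 and 9.71 in XL413, 9.10, 9.76 and 8.23 in OF1, and 9.57, 10.2 and 10.6 in the combination. The 3 combination libraries were all above the 3 DMSO libraries and overlapped those of the single inhibitors. Against DMSO the log2 change was 0.31 ± 0.08 (SE), a 1.24-fold rise, with an adjusted p of 0.0319 in edgeR. The HERC6 call was lost without DMSO replicate 2 (adjusted p = 0.0909 in edgeR), DMSO replicate 3 (0.138), combination replicate 2 (0.0869) or combination replicate 3 (0.0994), with log2 changes of 0.31, 0.25, 0.30 and 0.27. With the mean log2 level of the muscle fibre genes as a covariate the HERC6 log2 change was 0.18, with an adjusted p of 0.4 in edgeR. That level itself differed between the groups, so such fits cannot tell it and treatment apart.

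IRF1, a transcription factor that binds the response element and is itself induced by interferon-γ, differed between the combination and OF1. Its level was 16.5, 17.8 and 17.2 CPM in DMSO, 17.4, 19.5 and 18.9 in XL413, 15.9, 15.6 and 14.4 in OF1, and 18.2, 17.9 and 19.9 in the combination. The OF1 libraries were below all 9 others, and the combination libraries overlapped those of XL413. IRF1 rose by a log2 change of 0.28 ± 0.06 (SE), or 1.22-fold, from OF1 to the combination, with an adjusted p of 0.0218 in edgeR. OF1 against DMSO gave -0.17 ± 0.06, with an adjusted p of 0.24 in edgeR, so the lower level under OF1 alone did not pass the test. The IRF1 call was lost without OF1 replicate 2 (adjusted p = 0.0551 in edgeR), OF1 replicate 3 (0.067) or combination replicate 3 (0.0883), and with the muscle covariate (0.69). The log2 change in those fits was 0.30, 0.24, 0.23 and 0.24.

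**Figure D1:**
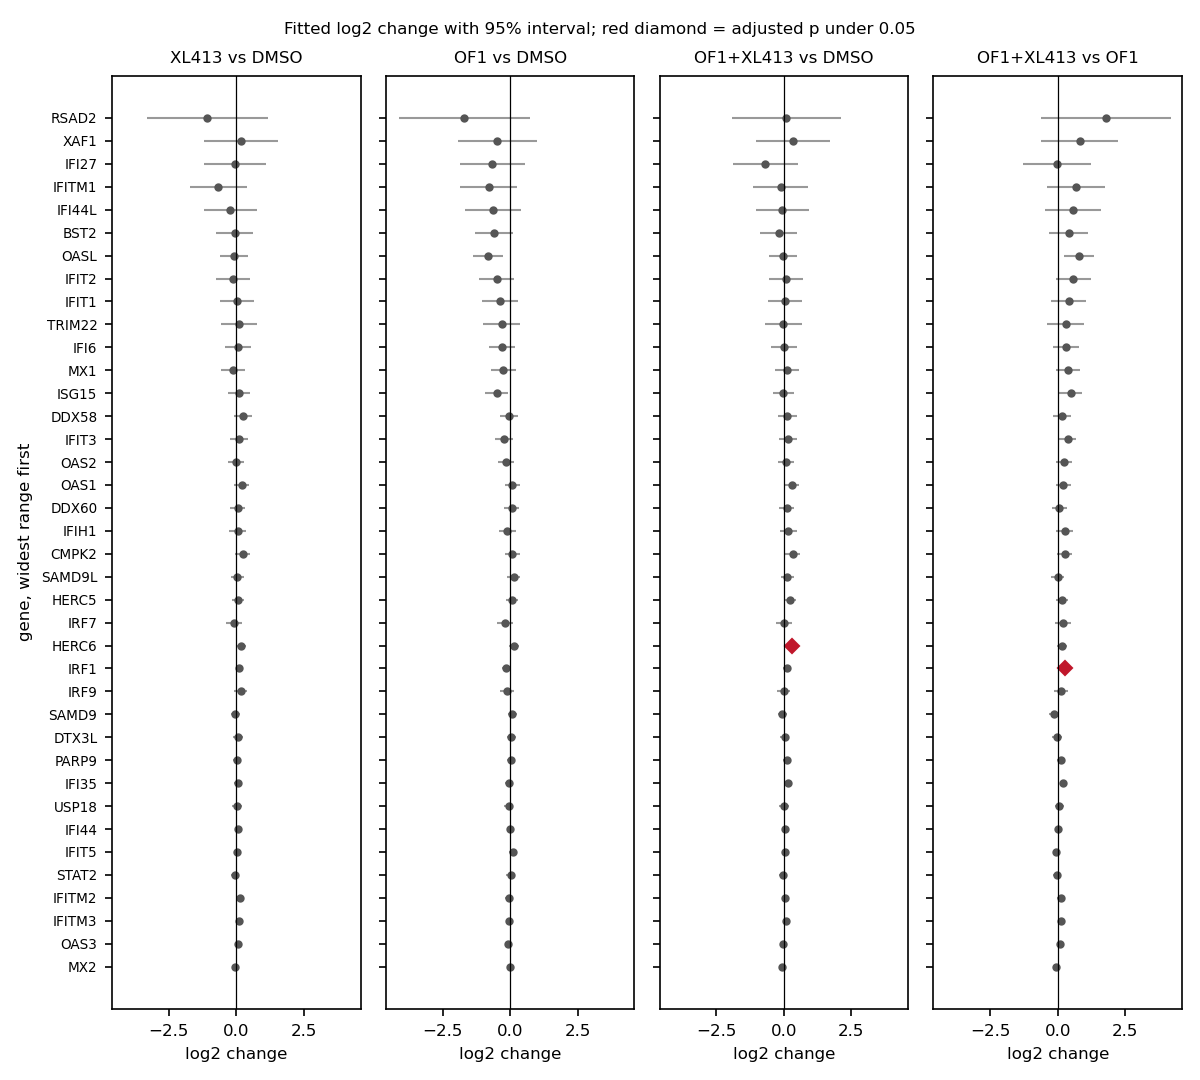
Fitted log2 change of each of the 38 genes (vertical axis, genes of the widest range over the 12 libraries first) with its 95% interval, in 4 comparisons. The red diamonds mark HERC6 in the combination against DMSO (0.31) and IRF1 in the combination against OF1 (0.28), and the intervals are widest for RSAD2 at the top.

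As a list the members lay close to 0 against DMSO. The median log2 change was 0.05 for XL413, -0.10 for OF1 and 0.05 for the combination, beside medians of 0.00 over all tested genes. In the combination against XL413 it was 0.03, in the combination against OF1 0.19, and for non-additivity 0.08. Of the 38 genes, 26 were above 0 for XL413, 12 for OF1, 23 for the combination, 23 against XL413 and 32 against OF1. These comparisons share libraries, so their values are not independent of each other. Leaving out single libraries, the median ran from -0.05 to 0.14 for XL413, -0.14 to -0.03 for OF1, -0.07 to 0.21 for the combination against DMSO, -0.09 to 0.15 against XL413 and 0.06 to 0.23 against OF1. Without DMSO replicate 1 it was 0.14 for XL413, -0.03 for OF1 and 0.21 for the combination against DMSO. Without combination replicate 1 the medians became -0.07 against DMSO, -0.09 against XL413 and 0.06 against OF1. Without DMSO replicate 3 the median was -0.05 for XL413 and -0.02 for the combination, and without XL413 replicate 3 that for XL413 was -0.03. Without XL413 replicate 1 the median of the combination against XL413 was -0.02. With the muscle covariate the median against OF1 was 0.01.

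OF1 alone gave the lowest levels for several members, none of which passed the test against DMSO. OASL, an OAS-like protein that enhances RIG-I signalling, stood at 2.94, 1.79 and 1.88 CPM in DMSO, 1.74, 2.01 and 2.44 in XL413, 1.57, 1.204 and 0.961 in OF1, and 2.89, 1.65 and 1.96 in the combination. OF1 libraries lay below the other 9. The log2 difference of OF1 from DMSO was -0.82 ± 0.26 (SE, adjusted p = 0.156 in edgeR), and that of the combination from OF1 was 0.79 ± 0.26 (adjusted p = 0.0893). ISG15, the ubiquitin-like modifier, stood at 14.7, 10.9 and 7.74 CPM in DMSO, 9.49, 11.6 and 14.6 in XL413, 7.97, 7.87 and 7.68 in OF1, and 13.0, 9.73 and 10.2 in the combination. DMSO replicate 3 overlapped the OF1 libraries, and the ISG15 difference of OF1 from DMSO was -0.50 ± 0.20 (SE, adjusted p = 0.254 in edgeR). It was -0.25 without DMSO replicate 1 and -0.71 without DMSO replicate 3. For OASL the difference of the combination from OF1 was 0.53 without combination replicate 1.

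Counting genes whose 3 libraries of one group all lay above or below those of the other, OF1 was lower than DMSO for 4 of 38 members (IRF1, IRF7, OAS3, OASL) and higher for 0, where 11.8% and 10.2% of all genes did so. The combination was higher than OF1 for 10 of 38 members and lower for 0, where the shares over all genes were 11.2% and 11.3%. The 10 were IFIH1, IRF1, ISG15, IFIT3, IFITM2, IFITM3, OAS1, OAS3, OASL and IFI35. XL413 was higher than DMSO for 3 (IFITM3, OAS3, CMPK2; all genes 13%) and lower for 0 (14.8%). The combination was higher than DMSO for 4 (IRF1, HERC6, CMPK2, IFI35; 13.8%) and lower for 0 (13.8%), and against XL413 it was higher for 0 (8.99%) and lower for 1, OAS3 (10.4%). Apart from the higher side against OF1, each of these shares of the members was near or under the share of all genes. Without combination replicate 1, edgeR called 3 members against OF1, with IRF1 and IFI35 higher and SAMD9, an antiviral restriction factor, lower, while in that fit 2227 genes were called in all and 845 with every library.

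**Figure D2:**
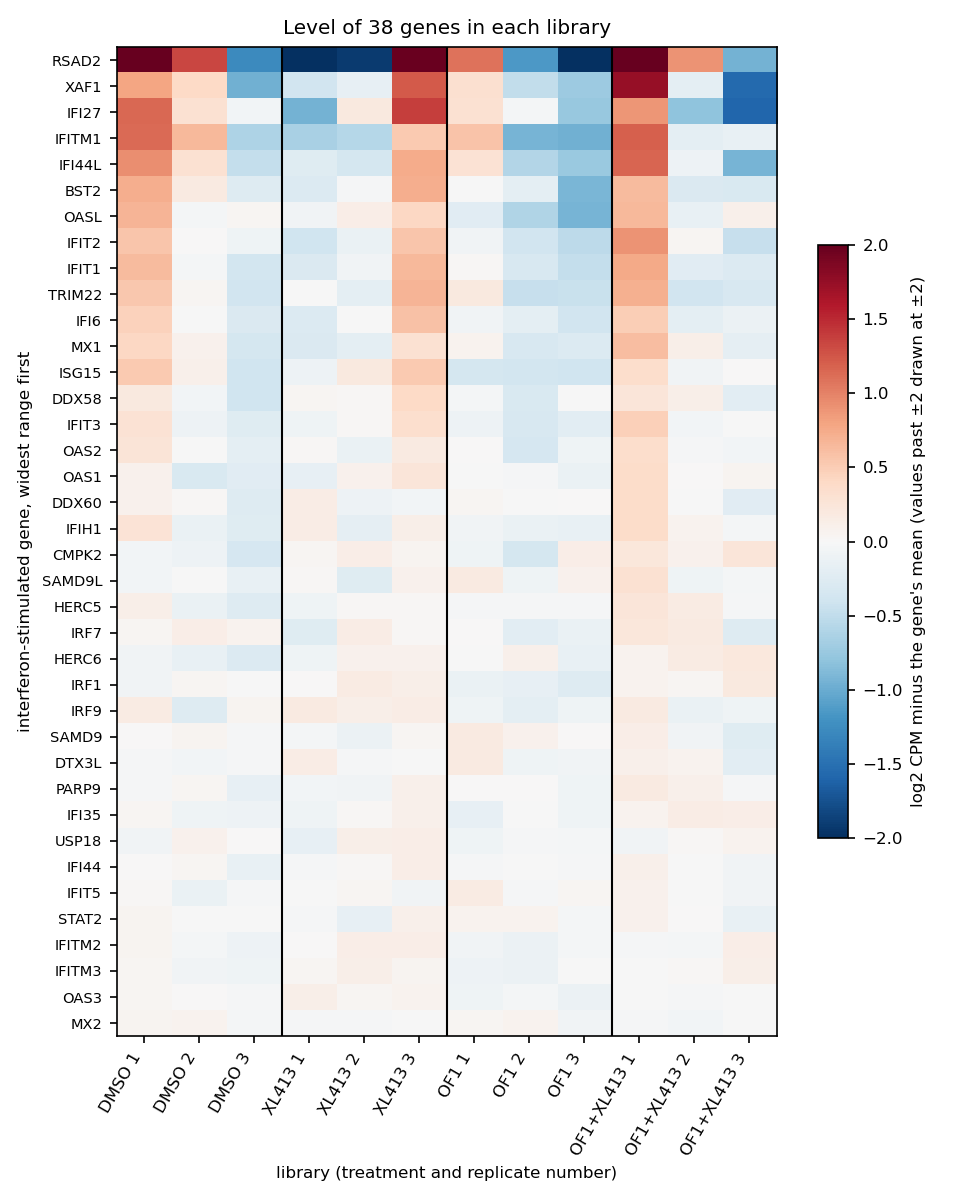
Level of the 38 genes (rows, widest range first) in the 12 libraries (columns), as log2 CPM minus the mean of the gene, with values past ±2 drawn at ±2. DMSO replicate 1, XL413 replicate 3, OF1 replicate 1 and combination replicate 1 are the reddest columns of their groups, and rows below IRF9 change little in colour.

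In each group 1 library carried the highest levels of most, though not all, members. DMSO replicate 1 was the highest of its 3 libraries for 29 of 38 members, where 36% of all tested genes had that library highest. XL413 replicate 3 was highest of its group for 27 (all genes 31.5%), OF1 replicate 1 for 26 (36.6%) and combination replicate 1 for 30 (36.5%). The library most often lowest was DMSO replicate 3 for 30 members (32.8%), XL413 replicate 1 for 23 (33.4%), OF1 replicate 3 for 20 (33.5%) and combination replicate 3 for 20 (35.5%). Replicate 1 was thus most often highest in DMSO, OF1 and the combination, and replicate 3 in XL413. The labels do not say whether replicate numbers tie libraries of different groups to each other. A shared effect of the replicate number on this list was not tested.

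Combination replicate 1 was the highest of all 12 libraries for 17 of 38 members, where it was so for 9.52% of all tested genes. XL413 replicate 3 was highest for 6 (all genes 5.78%), combination replicate 3 for 5 (16.2%), DMSO replicate 1 for 3 (7.49%) and OF1 replicate 1 for 3 (13%). It was known when the list was proposed that combination replicate 1 might differ, so these counts are a description. Relative to the mean of combination replicates 2 and 3, replicate 1 was higher for 32 of 38 members, with a median log2 difference of 0.31 beside 0.00 over all genes. The difference exceeded 1 for 7 of them.

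The 12 members in which combination replicate 1 stood farthest above the other 11 libraries were 3 of the 4 IFIT genes, 2 of 3 RNA sensors, 2 of 4 OAS genes, MX1, RSAD2, SAMD9L, IFI44L and XAF1. None of these 12 was a transcription factor, a gene of ISG15 conjugation, an IFITM gene, PARP9 or DTX3L. That rests on where the list was cut. The last of the 12, IFIH1, stood above the next library by 0.086 in log2 CPM, and HERC5, of ISG15 conjugation, by 0.083. IFITM1, PARP9 and IRF7 followed, also highest in combination replicate 1. RSAD2 encodes viperin, which makes a chain-terminating nucleotide, and had 78, 31 and 5 counts in DMSO, 1, 3 and 51 in XL413, 26, 5 and 3 in OF1, and 89, 24 and 6 in the combination. In CPM that was 2.34, 0.909 and 0.149, then 0.0290, 0.0958 and 1.43, then 0.771, 0.163 and 0.0901, and 2.76, 0.673 and 0.187. Counts differed many-fold between the libraries of every group, and all 4 groups overlapped. Its log2 change in the combination against DMSO was 0.09 ± 0.95 (SE), with an adjusted p of 0.969 in edgeR, and without combination replicate 1 it was -1.37.

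The IFIT proteins bind foreign RNA ends and hinder their translation. IFIT1 was measured at 11.8, 7.39 and 5.92 CPM in DMSO, 6.24, 7.22 and 11.95 in XL413, 7.71, 6.12 and 5.49 in OF1, and 12.8, 6.53 and 6.26 in the combination. IFIT2 was measured at 8.72, 5.96 and 5.56 CPM in DMSO, 4.50, 5.40 and 8.73 in XL413, 5.63, 4.52 and 4.11 in OF1, and 10.99, 6.11 and 4.30 in the combination. IFIT3 was measured at 18.6, 14.2 and 12.8 CPM in DMSO, 14.4, 15.5 and 19.2 in XL413, 14.1, 12.2 and 13.1 in OF1, and 21.2, 14.6 and 15.1 in the combination. These 3 genes had the same high library in every group. IFIT5, which of the listed IFIT genes lies nearest to IFIT1 on chromosome 10, kept to 32.1 to 39.2 CPM over all 12 libraries. Its highest value was in OF1 replicate 1. The IFIT1 log2 change was -0.37 ± 0.31 (SE) for OF1 against DMSO (adjusted p = 0.628 in edgeR) and 0.03 ± 0.30 for the combination against DMSO (0.968), the latter being -0.39 without combination replicate 1. For OF1 it was -0.05 without DMSO replicate 1 and -0.57 without DMSO replicate 3.

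**Figure D3:**
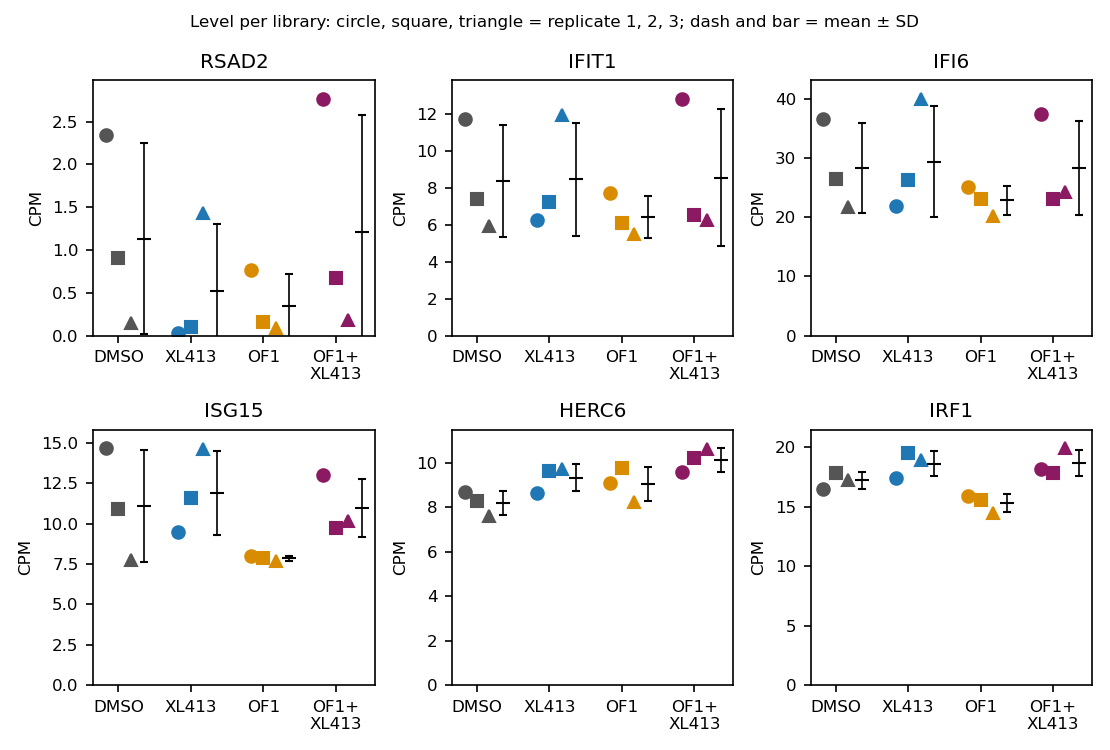
CPM of 6 genes in each library (circle, square and triangle for replicates 1, 2 and 3), with the mean and SD of each group as a dash and bar, the bars of RSAD2 being cut at 0. In RSAD2, IFIT1 and IFI6 the high points are DMSO replicate 1, XL413 replicate 3 and combination replicate 1, whereas the points of HERC6 and IRF1 lie close together within each group.

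Among the RNA sensors, DDX60, a helicase linked to RIG-I signalling, was at 8.12, 7.77 and 6.42 CPM in DMSO, 8.56, 7.15 and 7.39 in XL413, 7.85, 7.65 and 7.75 in OF1, and 9.94, 7.62 and 6.54 in the combination. IFIH1, the long double-stranded RNA sensor MDA5, was at 4.77, 3.58 and 3.35 CPM in DMSO, 4.38, 3.48 and 4.26 in XL413, 3.76, 3.58 and 3.54 in OF1, and 5.06, 4.12 and 3.83 in the combination. Combination replicate 1 led both, though by less than for RSAD2, and the groups overlapped except that the IFIH1 values of the combination were all above those of OF1. DDX58, which encodes RIG-I and is RIGI in RefSeq, ranged from 4.42 to 7.73 CPM and was highest in XL413 replicate 3.

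The OAS enzymes make the 2′-5′ oligoadenylate that activates RNase L. OAS1 was at 7.13, 5.43 and 5.77 CPM in DMSO, 5.98, 7.15 and 7.98 in XL413, 6.70, 6.61 and 6.15 in OF1, and 8.63, 6.78 and 6.98 in the combination. OAS2 was at 8.78, 7.31 and 6.45 CPM in DMSO, 7.52, 6.71 and 8.34 in XL413, 7.41, 5.82 and 6.93 in OF1, and 9.44, 7.23 and 7.11 in the combination. Both had combination replicate 1 on top. OAS3, between them on chromosome 12, instead kept its libraries within 92.0 to 107 CPM. OAS3 was highest in XL413 replicate 1, and its log2 difference was -0.09 ± 0.03 (SE) for OF1 against DMSO, with an adjusted p of 0.226 in edgeR.

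Of the dynamin-like GTPases that trap viral nucleocapsids, MX1 was at 15.6, 12.4 and 9.14 CPM in DMSO, 9.58, 10.2 and 14.4 in XL413, 12.2, 9.34 and 9.61 in OF1, and 17.8, 12.6 and 10.3 in the combination. Its neighbour MX2 ranged from 52.0 to 57.3 CPM. The MX1 libraries of every group overlapped those of the others, and the highest library within each group was the same as for IFIT1. In 2 libraries the counts of this pair were not whole, so RSEM had split some reads.

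SAMD9L, an antiproliferative restriction factor, was at 8.15, 8.45 and 7.62 CPM in DMSO, 8.65, 7.15 and 8.99 in XL413, 9.54, 7.94 and 9.01 in OF1, and 10.4, 7.96 and 8.23 in the combination. IFI44L, which dampens interferon responses, was at 3.27, 2.11 and 1.23 CPM in DMSO, 1.45, 1.34 and 2.86 in XL413, 2.104, 1.14 and 1.02 in OF1, and 3.85, 1.60 and 0.904 in the combination. XAF1, a pro-apoptotic antagonist of XIAP, was at 1.11, 0.851 and 0.329 CPM in DMSO, 0.493, 0.575 and 1.51 in XL413, 0.800, 0.456 and 0.390 in OF1, and 2.14, 0.561 and 0.218 in the combination. For XAF1 combination replicate 1 was the highest and combination replicate 3 the lowest of all 12 libraries. IFI44, beside IFI44L on chromosome 1, ranged only from 24.6 to 30.1 CPM.

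The remaining members ranged from narrow to wide. HERC5, IFITM1, PARP9, IRF7 and TRIM22 also had combination replicate 1 as their highest library, by 1.03-fold to 1.06-fold over the next. Highest in XL413 replicate 3 were DDX58, STAT2, USP18, IFI6, IFI27 and IFI44. USP18, the protease that removes ISG15 and restrains the receptor, ranged from 9.90 to 12.2 CPM, and STAT2 from 18.5 to 22.3 CPM. BST2 (tetherin, which holds budding virions at the membrane) ran from 1.56 to 4.86 CPM, TRIM22 from 1.69 to 3.82 CPM and IFI27 from 0.748 to 5.82 CPM. CMPK2, next to RSAD2 on chromosome 2, ran from 2.83 to 4.24 CPM, SAMD9 from 25.4 to 34.1 CPM, IRF9 from 4.55 to 6.18 CPM and IFI35 from 19.3 to 24.0 CPM. IFITM1, IFITM2 and IFITM3, near-identical genes that block viral entry, had fractional counts in all 12 libraries, as did PARP9 and DTX3L, which overlap on chromosome 3. Their levels are therefore uncertain.

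The spread between replicates was wider than counting for many members. The within-group SD of log2 CPM, pooled over the 4 groups, was divided by the SD that counting alone gives at that level. The median ratio was 2.01 for the 38 members and 1.46 over all tested genes. It was over 2 in 19 of 38 (50%), and in 23.9% of all genes. IFI6 (7.47), RSAD2 (6.36), IFI27 (6.03), IFITM1 (5.63), IFIT1 (5.31), IFIT2 (4.67), MX1 (4.65), IFI44L (4.05) and ISG15 (3.87) were above the 95th percentile of all genes, which was 3.80. OAS3 (1.14), CMPK2 (1.15), HERC5 (1.15), HERC6 (1.21) and IRF1 (1.25) were at the narrow end.

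**Figure D4:**
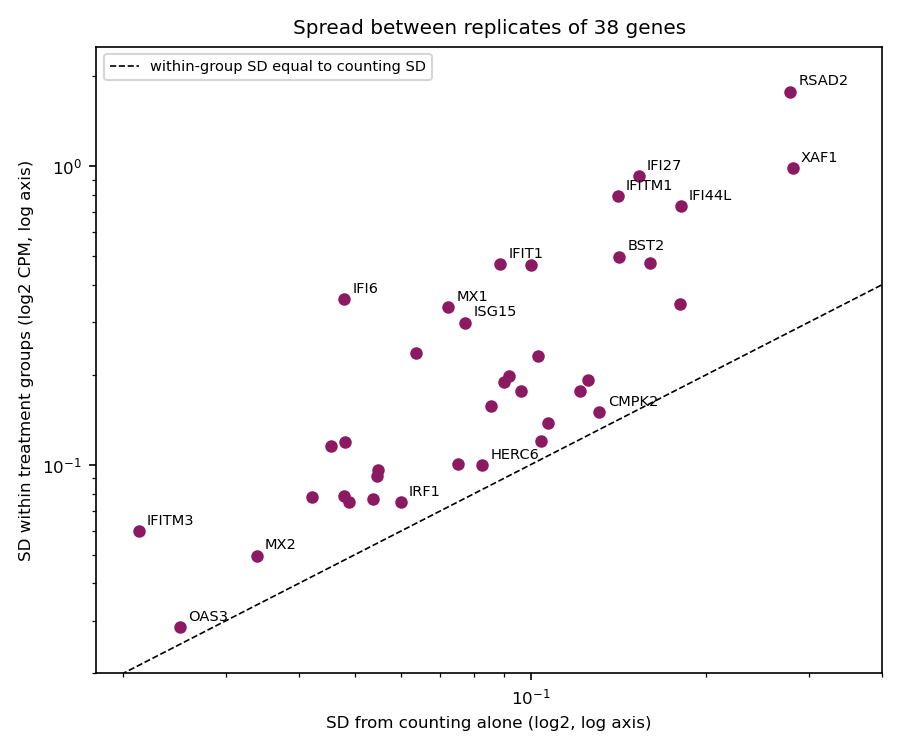
Within-group SD of log2 CPM of each of the 38 genes (vertical, log axis) against the SD expected from counting alone (horizontal, log axis), with a dashed line where they are equal. IFI6 and RSAD2 lie far above the line, at ratios of 7.47 and 6.36, and OAS3, CMPK2 and HERC6 lie near it.

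Muscle transcripts differed between the same libraries. The mean log2 CPM of the 31 tested muscle fibre genes was 0.60, 1.26 and 2.21 in DMSO, 2.56, 2.01 and 1.10 in XL413, 1.29, 2.42 and 2.53 in OF1, and 0.69, -0.81 and -0.16 in the combination. The median of the 38 genes, each as log2 CPM minus its mean, was 0.10, 0.00 and -0.17 in DMSO, -0.06, 0.01 and 0.14 in XL413, -0.00, -0.15 and -0.12 in OF1, and 0.27, -0.01 and -0.07 in the combination. In DMSO, XL413 and OF1 the library with the highest interferon-stimulated genes had the lowest muscle level of its group. In the combination it was reversed, since replicate 1 had both the highest interferon-stimulated genes and the highest muscle level. The part of the muscle transcripts in these differences was not tested. Combination replicates 2 and 3 had the lowest muscle levels of the 12 libraries, so the covariate fits cannot tell muscle level and treatment apart.

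**Figure D5:**
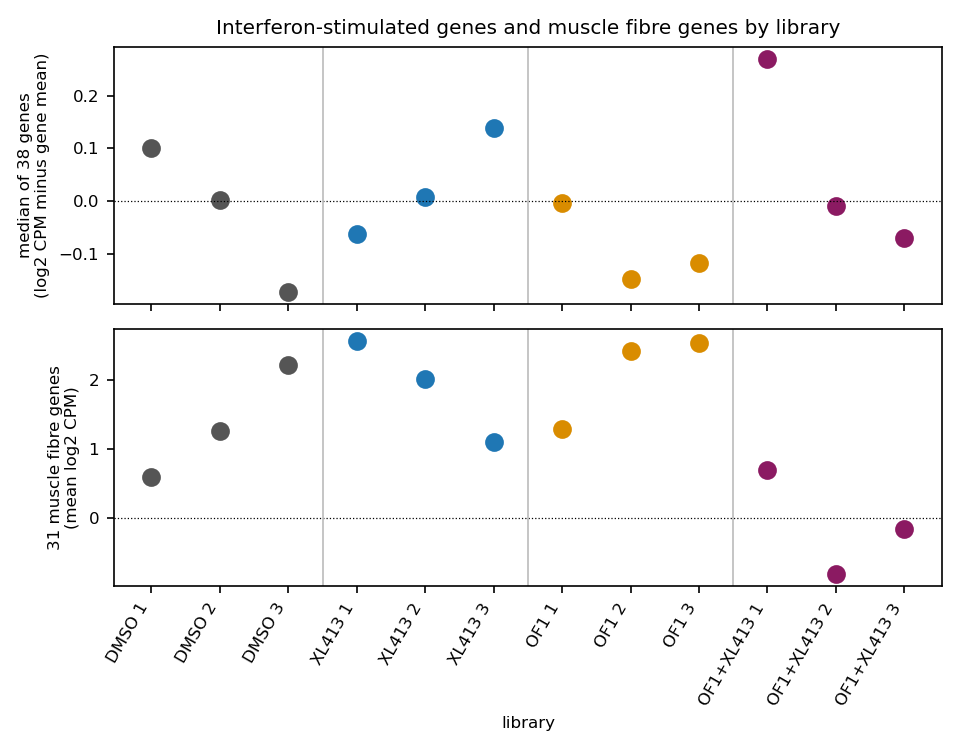
Upper panel, median over the 38 genes of log2 CPM minus the gene mean, and lower panel, mean log2 CPM of 31 muscle fibre genes, for each of the 12 libraries. Combination replicate 1 has the highest value above (0.27), and within DMSO, XL413 and OF1 the library highest above is the lowest below.

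Genes upstream and beside the list were described from lists of other pathway members. Of 9 interferon genes 1, IFNE, passed the filter, at 0.205 to 0.580 CPM, and IFNB1 had at most 1 count in a library. Of 10 receptor and JAK-STAT genes 1 was called, IFNGR2, a chain of the interferon-γ receptor. Over all tested genes 2.8% were called with XL413 and 10.7% with the combination against DMSO. IFNGR2 rose 1.26-fold with XL413 against DMSO (log2 change 0.34 ± 0.05, SE, adjusted p = 0.00275 in edgeR). With the combination against DMSO it rose 1.24-fold (0.32 ± 0.05, adjusted p = 0.0013 in edgeR). IFNGR2 stood at 40.2, 38.7 and 38.3 CPM in DMSO, 48.5, 53.0 and 46.8 in XL413, 44.1, 44.9 and 47.2 in OF1, and 47.9, 47.3 and 50.7 in the combination. All 9 treated libraries were above all DMSO libraries, though the share of all genes that did so was not counted. OF1 against DMSO gave a log2 change of 0.22 ± 0.05 (SE, adjusted p = 0.0518 in edgeR), which did not pass the test.

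Among 12 tested genes of nucleic acid sensing, TRIM25, the ubiquitin ligase that helps activate RIG-I, rose in the combination by 0.12 ± 0.03 on the log2 scale against DMSO and by 0.15 ± 0.03 against XL413. IRF3, the factor that drives interferon-β transcription, rose by 0.23 ± 0.05 from OF1 to the combination. Among 5 tested inhibitors, SOCS3 had a log2 change of -0.23 ± 0.05 in the combination against DMSO and -0.22 ± 0.05 against XL413, and IRF2 rose by 0.19 ± 0.06 against DMSO. These are few calls from short lists. Over all tested genes 10.7%, 3.41% and 5.5% were called in the combination against DMSO, XL413 and OF1. Of 34 tested other interferon-induced genes, 3 rose and 0 fell with XL413, where 1.26% of all tested genes rose. With OF1 0 were called, where the share in either direction was 1.15%. In the combination against DMSO 6 rose and 1 fell, where 5.65% of all genes rose and 5.07% fell. Against XL413, 0 rose and 1 fell (all genes 1.06% and 2.35%), and against OF1, 4 rose and 1 fell (2.79% and 2.71%). Their median log2 change in the combination against DMSO was 0.11.

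UBE2L6 and UBA7, the conjugating and activating enzymes for ISG15, rose in the combination against DMSO, by 0.28 ± 0.05 and 0.57 ± 0.16 on the log2 scale. UBE2L6 also rose with XL413 against DMSO (0.23 ± 0.05) and in the combination against OF1 (0.24 ± 0.05). The mean level of UBA7 was 3.14 CPM in DMSO, 4.69 in XL413, 3.54 in OF1 and 4.66 in the combination. It was thus about as high with XL413 alone as with both inhibitors. PARP12, a zinc-finger antiviral factor, rose by 0.24 ± 0.05 with XL413 and 0.21 ± 0.05 with the combination. GBP1, a guanylate-binding protein induced by interferon-γ, rose by 0.38 ± 0.09 and RTP4 by 1.43 ± 0.35 from OF1 to the combination, RTP4 resting on 8 to 28 counts per library. TRIM14, an adaptor of MAVS signalling, had a log2 change of -0.16 ± 0.04 in the combination against DMSO. Combination replicate 1 was the highest of 12 for 15 of the 62 tested pathway genes, where the share over all genes was 9.52%, among them PARP14 (39.2 CPM) and EPSTI1 (1.61 CPM).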

How the data were processed

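RNA from 12 libraries of A375 cells, 3 in each of 4 groups, was selected with oligo-dT beads and made into strand-marked libraries, per the labels' protocols. Groups hold biological replicates by the submitters' account, but nothing says that they were separate cultures. The p-values then reflect the spread among these libraries, which may be technical. The deposited table, made by the authors, holds expected counts for each gene symbol, unscaled. The submitters' processing notes list Bowtie2 2.1.0, RSEM 1.2.15 and hg38. Annotation, settings and whether counting was by strand were not given in the sources used here, so overlapping genes are uncertain. Values that were not whole (10.6%) were rounded.

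Genes passing filterByExpr (15353) were fitted in edgeR 4.0.16 (R 4.3.3) with TMM factors, 1 mean per group and 8 residual degrees of freedom over all 12 libraries. Quasi-likelihood tests were adjusted by Benjamini-Hochberg over all tested genes, with a threshold of 0.05. Standard errors were derived from the log2 change and F. Log2 CPM used a prior count of 2. DESeq2 1.42.0 and limma 3.58.1 (voom) were alternatives. The fit was also run on simulated data, with changes larger than those of HERC6 and IRF1. That run does not bear on their calls. No replicate copied another (chi-square over degrees of freedom, 2.33 to 13.96). Values in every library are given for members called in any comparison and for the 12 in which combination replicate 1 stood farthest above the others. OASL, ISG15, IFNGR2 and the ranges of other members were added after their values were seen. The members, the pathway lists and the muscle list were chosen with earlier results of these data known, and their counts are descriptions. Member positions and promoters are from RefSeq on GRCh38.p14. DMSO, XL413 and OF1 libraries enter several comparisons. Values of some listed genes are not reported here.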

Additional observations from a re-analysis of the deposited data

How the results depend on the processing

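The sign of single members often changed. Of the 38 members, 22 changed the sign of their log2 change under at least 1 alternative for XL413 against DMSO, 11 for OF1 against DMSO, 27 for the combination against DMSO, 32 against XL413, 19 against OF1 and 27 for non-additivity. The cause was not tested.

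The number of members called stayed at 0 for XL413, OF1, the combination against XL413 and non-additivity under all alternatives run. For the combination against DMSO it was 0 with combination replicate 1 alone, 0 with the libraries of the 2 groups only and 0 with the muscle covariate, and for the combination against OF1 it was 0 under the same 3. Leaving out single libraries gave 0 to 1 for the combination against DMSO and 0 to 3 against OF1. With combination replicate 1 alone (its spread assumed to be that of the other groups) the median log2 change was 0.33 against DMSO, 0.25 against XL413 and 0.35 against OF1, and with the muscle covariate it was 0.0095 against OF1. Leaving out single libraries gave medians of -0.070 to 0.21 against DMSO. Combination replicate 1 was highest of 12 for 17 to 19 members, and its median excess was 0.31 to 0.35, under 7 other scalings, filters and prior counts.

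The labels state no pairing of libraries by replicate number. The correlations that follow were taken over genes at large, so they cannot exclude a shared effect on this list. Same-numbered libraries of different groups had correlations of -0.28 to 0.30, 4 of 18 were over 0.1, and 3 of 12 libraries correlated best with their own number. With the replicate block HERC6 and IRF1 were again the members called (adjusted p = 0.0411 and 0.0296 in edgeR), and the IFIT1 log2 change in the combination against XL413 was -0.059 in place of 0.0028.

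Against DMSO, signs of the combination's log2 change reversed for XAF1 (-0.074) and IFIT2 (-0.0013) with limma-voom, for IFI44L with combination replicate 1 alone (0.81), and with the muscle covariate for IFIT1 (-0.25), RSAD2 (-0.75), IFIT2 (-0.12), MX1 (-0.12) and OAS2 (-0.023). IFIT1 in the combination against XL413 was -0.032 with limma-voom, -0.0058 with the 2 groups only and -0.39 with the muscle covariate, which also gave RSAD2 -0.13 there. With that covariate IFIT1 was -0.050 against OF1 and -0.20 for non-additivity.

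Leaving out single libraries, the combination against DMSO ranged over -0.39 to 0.35 for IFIT1, -1.37 to 1.17 for RSAD2, -0.95 to 0.80 for XAF1, -0.37 to 0.33 for IFIT2, -0.81 to 0.34 for IFI44L, -0.073 to 0.23 for DDX60, -0.12 to 0.33 for MX1, -0.038 to 0.32 for IFIT3, -0.0015 to 0.21 for SAMD9L and -0.072 to 0.20 for OAS2. IFIT1 ranged over -0.32 to 0.35 for XL413 against DMSO, -0.42 to 0.34 against XL413, -0.016 to 0.57 against OF1 and -0.044 to 0.72 for non-additivity, and RSAD2 over -0.29 to 4.22 against XL413.

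All genes called also moved: 430 (86 to 1394) for XL413, 176 (42 to 388) for OF1, 1645 (343 to 2113) for the combination, 524 (34 to 828) against XL413, 845 (9 to 2227) against OF1 and 0 (0 to 362) for non-additivity, the brackets giving the range over the alternatives. The muscle covariate gave 343, 34 and 9 of the combination's counts.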

Other observations

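Genes outside the list also stood highest in combination replicate 1. Of all tested genes 9.52% were highest and 10.2% lowest in that library. The examples here were picked from genes farthest above or below the other 11 libraries, so they are extremes. APOL3, an apolipoprotein L gene, was at 4.10 CPM there and at 1.89 to 3.34 CPM in the other 11 libraries. TSC22D3, the glucocorticoid-induced leucine zipper, was at 7.48 CPM there, at 3.11 and 3.74 CPM in combination replicates 2 and 3, and at 4.53 to 6.33 CPM in the other 9. YPEL5 was at 24.5 CPM there and at 16.5 to 20.7 CPM elsewhere. Among genes lowest in that library, STXBP6 was at 1.27 CPM there and at 1.80 to 3.30 CPM elsewhere, and PCDHA9 at 1.61 CPM and 2.25 to 4.06 CPM.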
